A study of Homo sapiens with 10 samples.

Results

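The 10 genes described here are CD14, CAMP, FBP1, ORM1, SULT1C2, TREM1, CLMN, THBD, G0S2 and TSPAN18, out of 19775 genes measured. They were chosen by their rise with vitamin D3 in THP1 cells, so that rise is given below as a description with no test. Each gene was read from the probe set with the highest mean over the 10 arrays among those that map to its symbol alone. The question put to the arrays was what the same genes did with vitamin D3, and with THP1 coculture, in colon cancer cells.

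Expression was measured on 10 Affymetrix arrays, 1 for each culture condition, so no condition has a replicate. HCT116 comes from a colorectal carcinoma, and Hke3 is a clone derived from HCT116. Both lines were profiled untreated, treated with vitamin D3, cocultured with THP1, and cocultured with vitamin D3 added, which makes 8 colon cancer arrays. THP1 is a monocytic leukaemia line that the labels call macrophages, and it was profiled alone and with vitamin D3 (2 arrays). In coculture the cell types were kept apart and shared only the medium, and these arrays are labelled as the cancer cells. HCT116 and Hke3 were grown in MEM and THP1 in RPMI, both with fetal bovine serum. Vitamin D3 was given for 24 h. Its dose and chemical form, and whether THP1 had been differentiated beforehand, are not given in the sources used here. Values are RMA log2 intensities, and differences are log2 differences, so 1 is a doubling.

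The hormone form of vitamin D binds the vitamin D receptor (VDR), which pairs with a retinoid X receptor such as RXRA and occupies response elements in DNA built from hexamer half-sites. In monocytes and macrophages this receptor is known for raising genes of innate defence, among them the endotoxin co-receptor CD14 and the cathelicidin CAMP, and vitamin D is a classical differentiation signal for myeloid leukaemia lines. In most responsive cells, intestinal cells included, it also raises CYP24A1, the enzyme that breaks the hormone down.

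Promoter sequence was matched by symbol for 7 of the 10 genes in RefSeq (build GRCh38.p14), and CLMN, THBD and TSPAN18 had no entry. The 250 bases before each start site were searched on both strands for a half-site, spelled AGGTCA or in the variant form AGTTCA or the form GGGTCA or else as GGTTCA, for a DR3 element (a pair of these half-sites in 1 orientation with 3 bases between them), and for a TATA box spelled TATAAA. The half-sites are shared with other nuclear receptors. The windows shown are those of the 3 genes that held a half-site and of ORM1, the 1 gene with a TATA box, because these are the sequence features that set the 7 windows apart. They run 5′ to 3′ on the gene's strand and end at the base before the start site. Capitals mark the half-sites, on either strand, in SULT1C2, TREM1 and CD14, and the TATA box in ORM1.
SULT1C2: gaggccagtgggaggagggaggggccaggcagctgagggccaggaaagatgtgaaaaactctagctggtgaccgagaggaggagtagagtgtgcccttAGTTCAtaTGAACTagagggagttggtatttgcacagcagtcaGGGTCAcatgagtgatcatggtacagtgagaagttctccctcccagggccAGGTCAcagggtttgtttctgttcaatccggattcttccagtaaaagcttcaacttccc
TREM1: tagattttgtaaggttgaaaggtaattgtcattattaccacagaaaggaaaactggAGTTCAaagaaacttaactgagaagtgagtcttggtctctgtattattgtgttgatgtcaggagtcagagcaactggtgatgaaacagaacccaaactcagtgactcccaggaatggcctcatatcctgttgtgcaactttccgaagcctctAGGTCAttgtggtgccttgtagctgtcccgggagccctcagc
CD14: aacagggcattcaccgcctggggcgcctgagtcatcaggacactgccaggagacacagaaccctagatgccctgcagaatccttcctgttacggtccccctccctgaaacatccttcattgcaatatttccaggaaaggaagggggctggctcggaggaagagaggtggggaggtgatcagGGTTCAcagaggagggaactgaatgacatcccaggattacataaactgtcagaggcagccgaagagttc
ORM1: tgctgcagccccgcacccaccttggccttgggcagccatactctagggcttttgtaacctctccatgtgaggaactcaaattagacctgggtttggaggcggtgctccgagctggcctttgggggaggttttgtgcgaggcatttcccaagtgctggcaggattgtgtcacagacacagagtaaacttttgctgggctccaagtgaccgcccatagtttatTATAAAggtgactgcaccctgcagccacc

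The SULT1C2 window is chr2:108288645-108288894 on the plus strand, TREM1 is chr6:41286683-41286932 on the minus strand, CD14 is chr5:140633176-140633425 on the minus strand and ORM1 is chr9:114322848-114323097 on the plus strand. SULT1C2 held 4 half-sites. Of these, 1 lies 152 to 147 bases before the start, 1 lies 144 to 139 bases before it on the opposite strand, 1 lies 109 to 104 bases before it and 1 lies 59 to 54 bases before it. TREM1 held 2, at 194 to 189 and at 42 to 37 bases before the start, and CD14 held 1, at 69 to 64 bases. The windows of CAMP, FBP1, ORM1 and G0S2 held no half-site, and none of the 7 held a DR3 element. Among all 35116 promoter windows of the same length, 33.8% held at least 1 half-site, 7.8% at least 2, 0.259% at least 4, 0.0655% a DR3 element and 10.7% a TATA box. A match describes letters in this window and says nothing on binding, and elements farther from the start were not searched.

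CYP24A1 changed the sign of its vitamin D3 difference with coculture, and this bears on how every vitamin D3 difference in coculture is read. CYP24A1 was at 9.99 log2 in HCT116 alone and 11.43 with vitamin D3, and at 10.89 in Hke3 alone and 12.35 with vitamin D3. In coculture the order was turned: 10.68 without and 9.70 with vitamin D3 in HCT116, and 12.25 without and 10.89 with it in Hke3. The pair differences were 1.44 and 1.45 in the monocultures and -0.98 and -1.36 in the cocultures. Whether the cells or the labels of the coculture arrays account for this was not tested, so vitamin D3 values are given below over all 4 pairs, over the monocultures and over the cocultures. For the Hke3 array with vitamin D3, 1 label field reads as untreated while the title, description and culture field give vitamin D3, and it was kept as treated. A line's mean over its pair of coculture differences stays the same if the vitamin D3 labels are exchanged.

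The labelled cell types were checked against their markers. The 11 monocyte and macrophage markers measured, of 13 listed, had a median of 11.88 log2 in THP1 alone and 11.96 with vitamin D3, and 5.28 to 5.68 on the colon cancer arrays. The 11 epithelial markers had medians of 10.95 to 11.68 on the colon cancer arrays and 5.81 and 5.87 in THP1, although 3 of them did not set the cell types apart: LGALS4 was low on all 10 arrays (5.30 to 5.60), VIL1 was at 6.29 to 6.50 on the colon cancer arrays and 6.37 and 6.42 in THP1, and CDX1 was at 7.45 to 7.77 and at 7.64 and 7.68.

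In THP1, all 10 genes were at least 2-fold higher with vitamin D3 than without it, by 6.13-fold for THBD to 77.9-fold for SULT1C2. Of all 12717 genes past the filter in THP1, 1.56% were at least 2-fold higher and 0.488% at least 2-fold lower, but this pair chose the genes, so nothing is read from the comparison. The filter kept genes whose higher THP1 value exceeded 6.18 log2, the median of all values. All 10 genes passed it, 5 of them already in THP1 alone. The median difference of the 10 was 4.83 log2 against -0.01 for all 12717. In the colon cancer cells the 40 pair differences of these genes lay between -0.58 and 0.57, with 17 above 0. The range and share over all genes were not counted, so nothing is read from these about the 10 genes. Of the 10, 6 did not exceed 6.18 log2 on any colon cancer array, and RMA compresses differences among dim values. There limma called none of the 4 genes bright enough to test, as it called 0% of all 13243 genes tested. These are bulk samples, in which fewer cells of a type and less RNA per cell cannot be told apart.

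**Figure D1:**
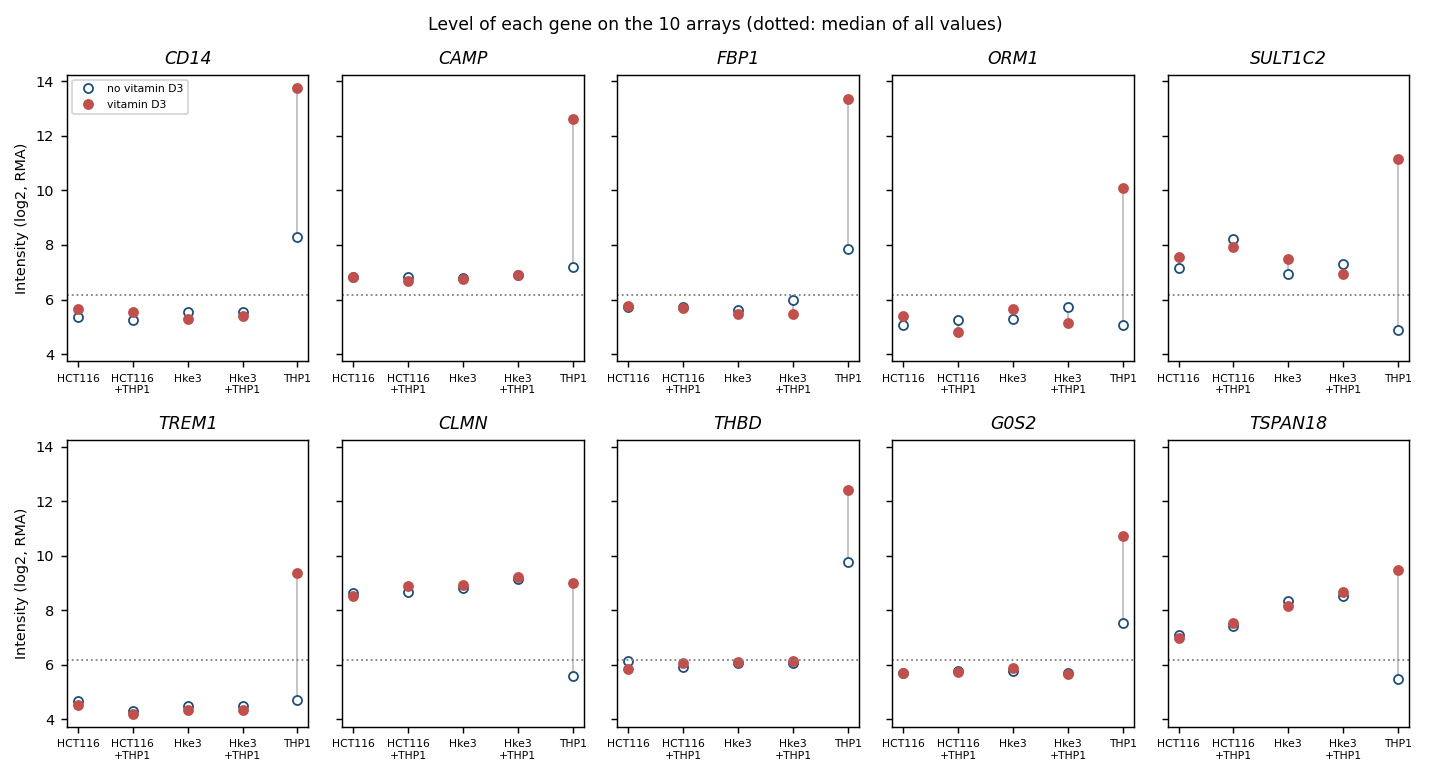
RMA log2 intensity of each of the 10 genes (1 panel a gene) on the 10 arrays, with open circles for arrays without vitamin D3, filled circles for arrays with it, a grey line joining each pair and a dotted line at 6.18 log2, the median of all values; each circle is 1 array. The THP1 pair is far apart in every panel, by 2.62 log2 for THBD to 6.28 for SULT1C2, while the circles of a colon cancer pair differ by at most 0.58.

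**Figure D2:**
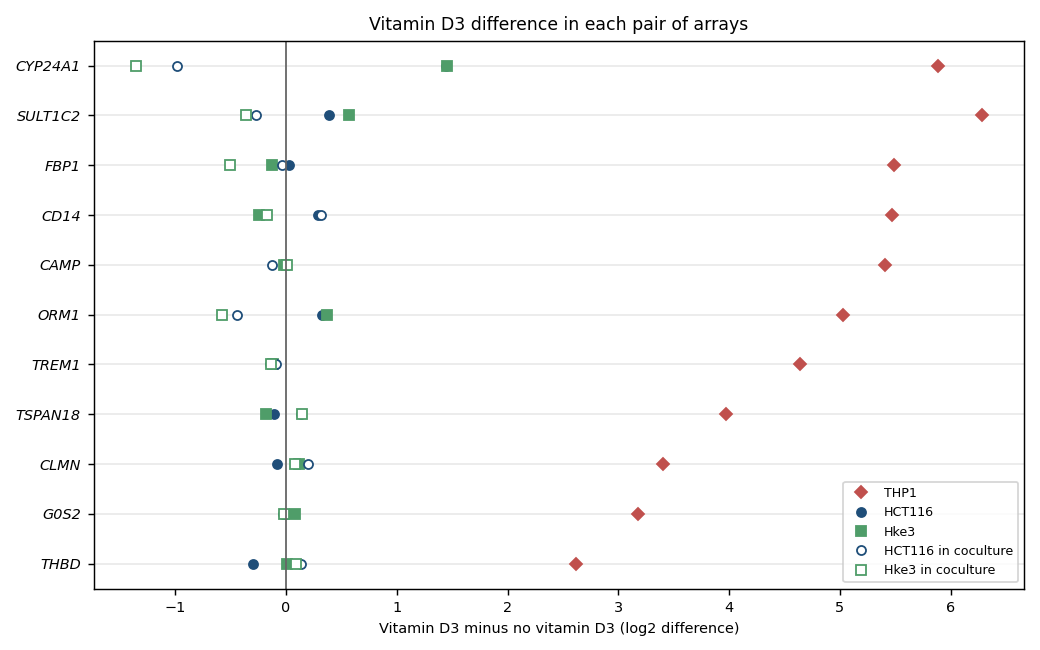
Difference between the array with vitamin D3 and its partner without it (log2) for each gene, ordered by the THP1 difference below CYP24A1, with diamonds for THP1, circles for HCT116 and squares for Hke3, filled for monoculture and open for coculture; each symbol is 1 pair of arrays. The THP1 diamonds stand between 2.62 and 6.28 for the 10 genes and the colon cancer symbols between -0.58 and 0.57, while CYP24A1 lies at 1.44 and 1.45 in the monocultures and below 0 in both cocultures.

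CD14, the co-receptor that hands endotoxin to the TLR4 complex, was at 8.29 log2 in THP1 alone and 13.77 with vitamin D3. The difference of 5.47 (44.4-fold) was the 4th largest of all genes. On the 8 colon cancer arrays CD14 ran from 5.24 to 5.64 log2 with a median of 5.47, under 6.18 on every array, and both THP1 arrays stood above all of them. Its vitamin D3 differences were above 0 in both HCT116 pairs, 0.28 alone and 0.32 in coculture. In Hke3 they were below 0, at -0.25 and -0.17. Fitted over all genes without the filter, the line difference in the vitamin D3 response was -0.51 ± 0.13 (SE; 95% interval -0.82 to -0.21), with an adjusted p of 1. So the lines split by sign, at a level where RMA values are dim and sizes are approximate.

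TREM1, an activating receptor that amplifies inflammatory signals through the adaptor TYROBP, was at 4.72 log2 in THP1 alone and 9.36 with vitamin D3, a difference of 4.64 (24.9-fold, approximate because the value in THP1 alone is under 6.18). On the colon cancer arrays it ran from 4.22 to 4.68 with a median of 4.42. In THP1 alone it was thus only 0.04 above the highest colon cancer array. On the probe sets used, TREM1 was the 1 gene of the 10 whose vitamin D3 difference had the same sign in all 4 colon cancer pairs. That sign was negative. The share of all genes with 1 sign in all 4 pairs was not counted. The pairs gave -0.14 in HCT116 and -0.12 in Hke3 alone, and -0.09 and -0.13 in coculture. The fitted value without the filter was -0.12 ± 0.08 (95% interval -0.30 to 0.06, adjusted p = 1), so the interval includes 0.

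CAMP encodes the precursor of the antimicrobial cathelicidin peptide. It was at 7.20 log2 in THP1 alone and 12.61 with vitamin D3, a difference of 5.41 (42.4-fold). On the colon cancer arrays it kept to a narrow band, from 6.68 to 6.90 with a median of 6.82, below both THP1 arrays. The vitamin D3 difference over the 4 pairs was -0.03 ± 0.06 (SE; adjusted p = 1; 95% interval -0.18 to 0.11), with pairs from -0.13 to 0.01. It was -0.01 in the monocultures and -0.06 in the cocultures, both inside that interval.

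ORM1, an acute phase plasma protein of the lipocalin family, was at 5.05 log2 in THP1 alone and 10.08 with vitamin D3, a difference of 5.03 (32.7-fold, approximate at the low end). It was the 1 gene whose level in THP1 alone lay inside the colon cancer range, which ran from 4.79 to 5.72 with a median of 5.26. In HCT116 it was at 5.08 alone, 5.40 with vitamin D3, 5.24 in coculture and 4.79 in coculture with vitamin D3, and in Hke3 at 5.28, 5.64, 5.72 and 5.14 in the same order. Its vitamin D3 differences were above 0 in both monoculture pairs, 0.32 in HCT116 and 0.37 in Hke3. They were below 0 in both coculture pairs, at -0.44 and -0.58. This is the order of signs that CYP24A1 showed. Without the filter, the difference between coculture and monoculture was -0.86 ± 0.14 (95% interval -1.17 to -0.54). Its p was the 8th smallest of 19775 genes and that of CYP24A1 the smallest, but the adjusted p was 0.504. Every colon cancer value of ORM1 is under 6.18 log2, and the 2 further probe sets, shared with the near-identical ORM2, did not show that order. The one that rose by 6.25 in THP1 gave 0.16 and 0.08 in the monocultures of HCT116 and Hke3 and -0.22 and 0.46 in their cocultures, and the other, at 0.49 in THP1, gave 0.07, -0.10, 0.03 and -0.14.

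THBD, thrombomodulin, binds thrombin on cell surfaces and turns it toward activating protein C. It was at 9.78 log2 in THP1 alone and 12.40 with vitamin D3, a difference of 2.62 (6.13-fold), the smallest of the 10 and the 26th largest of all genes. The next gene below it, which is not among the 10, had 2.61. On the colon cancer arrays THBD ran from 5.84 to 6.16 with a median of 6.08. Its vitamin D3 pairs there were -0.30 and 0.01 in the monocultures of HCT116 and Hke3 and 0.13 and 0.09 in the cocultures, with no common sign. Its 2 other probe sets gave 2.43 and 2.44 in THP1, close to the first.

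FBP1, a fructose bisphosphatase of gluconeogenesis, was at 7.86 log2 in THP1 alone and 13.35 with vitamin D3, a difference of 5.49 (45.0-fold). On the colon cancer arrays it ran from 5.47 to 5.98 with a median of 5.72. The 4 colon cancer pairs gave 0.03 in HCT116 alone, -0.12 in Hke3 alone, -0.04 in HCT116 coculture and -0.50 in Hke3 coculture. The last stands apart because FBP1 was at 5.98 in Hke3 coculture without vitamin D3, the highest colon cancer value. Over the 4 pairs the mean was -0.16 ± 0.24 (SD, n = 4), smaller than its spread.

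G0S2, an inhibitor of the triglyceride lipase PNPLA2, was at 7.54 log2 in THP1 alone and 10.71 with vitamin D3, a difference of 3.18 (9.03-fold). On the colon cancer arrays it ran from 5.67 to 5.87 with a median of 5.72, below both THP1 arrays. The vitamin D3 pairs lay between -0.03 and 0.08, and their mean was 0.01 ± 0.05 (SD, n = 4).

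SULT1C2, a cytosolic sulfotransferase, had the largest vitamin D3 difference of all genes in THP1. It was at 4.88 log2 in THP1 alone and 11.17 with vitamin D3, a difference of 6.28 (77.9-fold, approximate at the low end). In the cancer cells it was above 6.18 on every array, from 6.93 to 8.21 with a median of 7.40. In HCT116 it was at 7.16 alone, 7.55 with vitamin D3, 8.21 in coculture and 7.94 in coculture with vitamin D3, and in Hke3 at 6.93, 7.50, 7.31 and 6.95 in the same order. All 8 values lay above THP1 alone and below THP1 with vitamin D3. Its vitamin D3 differences were 0.38 in HCT116 and 0.57 in Hke3 without coculture. They were -0.27 and -0.36 in coculture, so the sign followed the same order as in CYP24A1 and ORM1. The largest colon cancer difference, 0.57, is 1.48-fold, against 77.9-fold in THP1.

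Over the 4 pairs SULT1C2 differed by 0.08 ± 0.20 (SE; adjusted p = 1; 95% interval -0.39 to 0.55). Within the monocultures the value was 0.48 ± 0.23 (interval -0.07 to 1.02, adjusted p = 1) and within the cocultures -0.31 ± 0.23 (-0.86 to 0.23, adjusted p = 0.980). The difference between them was -0.79 ± 0.33 (-1.56 to -0.01, adjusted p = 0.991). Its probe set 205342_s_at had the same order of signs, with 0.41 and 0.70 in the monocultures and -0.06 and -0.10 in the cocultures, but 205343_at did not (0.10, -0.03, -0.88 and 0.07, in the order HCT116 alone, Hke3 alone, HCT116 coculture, Hke3 coculture). Nor did 240200_at (-0.09, 0.17, -0.15 and -0.18). Of all 13243 genes tested, 657 (4.96%) were higher in both monoculture pairs and lower in both coculture pairs.

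CLMN encodes calmin, a membrane-anchored protein with actin-binding calponin homology domains. In THP1 it was at 5.61 log2 alone and 9.02 with vitamin D3, a difference of 3.41 (10.6-fold, approximate at the low end). The cancer cells already held a level like that of treated THP1: their 8 arrays ran from 8.54 to 9.23 with a median of 8.84. HCT116 had 8.62 alone, 8.54 with vitamin D3, 8.69 in coculture and 8.88 in coculture with vitamin D3, and Hke3 had 8.81, 8.93, 9.14 and 9.23 in the same order. On the probe set used, 213839_at, the lowest Hke3 value was below the highest HCT116 value, so the lines overlapped. On 225757_s_at they did not, with HCT116 at 7.49 to 7.77 and Hke3 at 8.15 to 8.50. Treated THP1 did not stand above every colon cancer array on 213839_at, nor on 221042_s_at or 225757_s_at. On 225759_x_at it did, at 7.79 log2 against 7.59 at most. Vitamin D3 gave 0.08 ± 0.06 over the 4 colon cancer pairs (SE; adjusted p = 1; 95% interval -0.06 to 0.22), with -0.08 and 0.12 in the monocultures of HCT116 and Hke3 and 0.20 and 0.08 in the cocultures. The other CLMN probe sets gave means of -0.07 (221042_s_at), -0.09 (225757_s_at) and 0.21 (225759_x_at), and none passed the threshold. In every pair 225757_s_at was below 0 and 225759_x_at above 0.

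TSPAN18, a tetraspanin membrane protein, was at 5.50 log2 in THP1 alone and 9.47 with vitamin D3, a difference of 3.97 (15.7-fold, approximate at the low end). On the colon cancer arrays it ran from 6.99 to 8.67 with a median of 7.85, above THP1 alone and below treated THP1. In HCT116 it was at 7.10 alone, 6.99 with vitamin D3, 7.41 in coculture and 7.54 in coculture with vitamin D3. In Hke3 it was at 8.33, 8.15, 8.53 and 8.67 in the same order, so the lines did not overlap and each line's coculture arrays were its higher ones. The vitamin D3 pairs were -0.11 in HCT116 and -0.18 in Hke3 alone, and 0.13 and 0.14 in coculture, with a mean of -0.0034 ± 0.07 (SE; adjusted p = 1; 95% interval -0.17 to 0.16). The signs turned with coculture in the opposite sense to CYP24A1, ORM1 and SULT1C2. The difference between cocultures and monocultures was 0.28 ± 0.11 (SE; 95% interval 0.03 to 0.53, adjusted p = 0.991). The other probe set, 228819_at, turned the same way, with -0.20 and -0.30 in the monocultures and 0.17 and 0.13 in the cocultures.

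**Figure D3:**
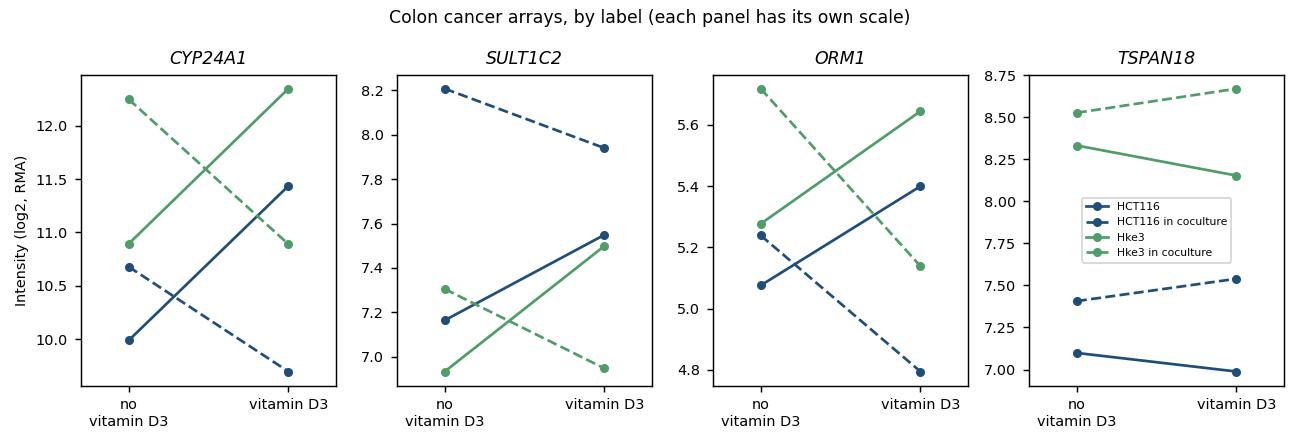
RMA log2 intensity without and with vitamin D3 in CYP24A1, SULT1C2, ORM1 and TSPAN18 on the 8 colon cancer arrays, joined by pair, in blue for HCT116 and green for Hke3, with solid lines for monoculture and dashed lines for coculture; each panel has its own log2 scale and each point is 1 array. In the first 3 panels the solid lines go up and the dashed lines go down, and in TSPAN18 they go the other way, by 0.18 at most.

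Over the 8 colon cancer arrays as a whole, limma, fitted with additive terms for vitamin D3, coculture and line, called 0 of 13243 genes for vitamin D3 at an adjusted p of 0.05, or 0%, and 375 genes had an unadjusted p under 0.05. The 4 of the 10 genes that could be tested, CAMP, SULT1C2, CLMN and TSPAN18, gave 0 calls beside that 0%. The highest upper limit of their 95% intervals was 0.55, for SULT1C2, which is under a doubling, but in the monocultures alone it was 1.02. The other 6 genes did not exceed 6.18 log2 on any colon cancer array. The response to vitamin D3 did not differ by cell line for any gene at that threshold (0 of 13243, or 0%, with 144 at an unadjusted p under 0.05), nor by coculture (0 of 13243, or 0%, with 652). In the fit that splits vitamin D3 by coculture, CYP24A1 had -2.62 ± 0.23 (SE; adjusted p = 0.122). With the 4 monoculture arrays fitted alone, CYP24A1 was the 1 gene called (1.45 ± 0.07, adjusted p = 0.00148), and with the 4 coculture arrays alone none was called, with 1569 genes at an unadjusted p under 0.05. None of the 10 genes was called in either.

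RNA of the receptor was above 6.18 log2 on all 10 arrays. VDR was at 8.10 to 8.48 log2 on the colon cancer arrays and at 8.19 and 7.94 in THP1 without and with vitamin D3. RXRA was at 9.16 to 9.42 on the colon cancer arrays and at 10.20 and 10.30 in THP1. CYP24A1 went from 4.51 to 10.40 in THP1, a difference of 5.88 (59.1-fold, approximate because the value in THP1 alone is under 6.18) and the 2nd largest of all genes, so THP1 started far below the colon cancer arrays in CYP24A1 (9.70 to 12.35) and ended within their range.

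THP1 coculture gave calls for 2 of the 4 testable genes, CLMN and TSPAN18, both higher. Of all 13243 genes, 498 were called higher, or 3.76%, and 537 lower, and with cyclic loess 713 were higher and 365 lower. The count of 498 fell to 28 without HCT116 with vitamin D3, to 92 without HCT116 in coculture with vitamin D3, and to between 175 and 241 without any other single array. TSPAN18 rose by 0.39 ± 0.07 (SE; adjusted p = 0.0214), with 0.31 and 0.19 without vitamin D3 and 0.55 and 0.52 with it in HCT116 and Hke3. CLMN rose by 0.26 ± 0.06 (adjusted p = 0.0429), with 0.07 in HCT116 and 0.34 in Hke3 without vitamin D3 and 0.35 and 0.30 with it. Both genes were higher in all 4 pairs.

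Both calls changed with the probe set or the arrays used. The other TSPAN18 probe set, 228819_at, gave -0.03 (adjusted p = 0.885), and with the mean of both probe sets the difference was 0.18 (adjusted p = 0.156). When each array was left out in turn, TSPAN18 missed the threshold in 5 of 8 fits: without HCT116 alone, either HCT116 array with vitamin D3 or either Hke3 array with vitamin D3 (adjusted p up to 0.0767). CLMN passed in 1 of 8, the fit without HCT116 alone, and its adjusted p reached 0.133 in the others. Without the filter CLMN had an adjusted p of 0.0653. Of the other CLMN probe sets, 221042_s_at gave 0.33 (adjusted p = 0.0797), 225757_s_at 0.22 (0.0712) and 225759_x_at 0.02 (0.921). With limma run on single probe sets, no CLMN probe set passed, the one used included (213839_at, adjusted p = 0.0588). In a fit with no vitamin D3 term, which does not use the vitamin D3 labels, both genes stayed past the threshold (adjusted p = 0.00996 for TSPAN18 and 0.0321 for CLMN). An RNA quality measure, the 3′ minus 5′ difference of the ACTB probe sets, was lower in coculture in all 4 pairs. In HCT116 it went from 0.30 to 0.16 without vitamin D3 and from 0.25 to 0.23 with it, and in Hke3 from 0.94 to 0.62 and from 0.72 to 0.56. Its part in the coculture differences was not tested.

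SULT1C2 had the widest coculture values of the 10 genes, 1.04 in HCT116 and 0.37 in Hke3 without vitamin D3 and 0.39 and -0.55 with it, and its mean of 0.31 ± 0.20 (SE) missed the threshold (adjusted p = 0.367). HCT116 in coculture without vitamin D3 was its highest colon cancer array, at 8.21 log2. CAMP differed by 0.03 ± 0.06 (adjusted p = 0.834). The coculture difference was also compared between the lines, where limma called 557 of 13243 genes, or 4.21%, and none of the 4 testable genes. That count was 277 without the filter, 973 with the stricter filter, 1169 with trend and robust fitting and 101 to 282 when each array was left out. The nearest was SULT1C2, with a difference of -0.81 ± 0.30 between Hke3 and HCT116 (adjusted p = 0.176).

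**Figure D4:**
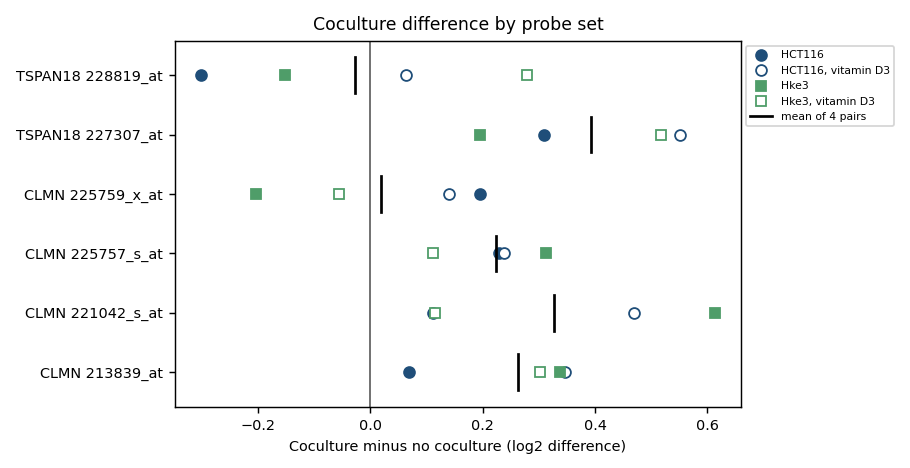
Difference between the array in THP1 coculture and its partner without coculture (log2) for each probe set of CLMN and TSPAN18, with circles for HCT116 and squares for Hke3, filled without vitamin D3 and open with it, and a black bar for the mean of the 4 pairs. All 4 symbols of TSPAN18 227307_at and CLMN 213839_at, the probe sets used, lie above 0, whereas those of TSPAN18 228819_at and CLMN 225759_x_at lie on both sides of 0.

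The monocyte genes that mark THP1 stayed low in the cocultures. CD14 was at 5.56 log2 in HCT116 and 5.39 in Hke3 in coculture with vitamin D3, where THP1 with vitamin D3 had 13.77. The summed log2 level of the 11 monocyte markers was 61.0 to 61.6 in the monocultures, 60.3 to 62.3 in the cocultures and 127.4 and 129.5 in THP1. The leukocyte marker PTPRC ran from 4.06 to 4.43 on the colon cancer arrays. The proteoglycan SRGN was at 6.28 in Hke3 coculture with vitamin D3 and at 3.94 to 4.90 on the other colon cancer arrays. On that array CD14, CAMP, FBP1, TREM1, THBD and G0S2 were below THP1 alone, as they were on every colon cancer array. ORM1, SULT1C2, CLMN and TSPAN18 were above THP1 alone on it, so nothing is read from this order.

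The cell lines differed in TSPAN18 and CLMN. TSPAN18 was higher in Hke3 by 1.16 ± 0.07 (SE; adjusted p = 2.3e-05), in 4 of 4 pairs and by 1.12 to 1.23 in each. Its other probe set gave 0.71 ± 0.09 (adjusted p = 0.000626). CLMN was higher in Hke3 by 0.35 ± 0.06 (adjusted p = 0.00328), by 0.19 to 0.46 in 4 of 4 pairs. Its other probe sets gave 0.64, 0.28 and 0.11, the last not past the threshold (adjusted p = 0.396). These are 2 of the 4 testable genes, where 24.8% of all genes tested were called higher in Hke3, so calls of this kind were common on these arrays.

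SULT1C2 was lower in Hke3 in all 4 pairs, by -0.05 to -0.99, but the mean of -0.54 ± 0.20 missed the threshold (adjusted p = 0.0635). Its probe set 205342_s_at passed it (-0.48 ± 0.15, adjusted p = 0.0357). CAMP differed by 0.04 ± 0.06 (adjusted p = 0.625). The ACTB measure, which was lower in coculture, also moved with the lines: it was 0.16 to 0.30 log2 in HCT116, 0.56 to 0.94 in Hke3 and -0.01 to 0.09 in THP1, and its part in these differences was not tested.

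Genes that work beside these 10 were read from lists chosen by function, with earlier results of these data known. Their counts in THP1 stand beside 1.56% of all 12717 genes at least 2-fold higher and 0.488% at least 2-fold lower. Of 8 endotoxin-sensing genes past the filter in THP1, 1 was at least 2-fold higher with vitamin D3, LY96, the partner of TLR4 (1.34), and their median was 0.09. None of 7 TREM1 signalling genes was 2-fold higher or lower. TYROBP, the adaptor through which TREM1 signals, was at 11.73 log2 in THP1 alone and 11.96 with vitamin D3. Of 7 antimicrobial genes 2 were at least 2-fold higher, lysozyme (LYZ, 1.78) and the protease inhibitor SLPI (1.32). Of 3 acute phase genes 1 was, the haemoglobin scavenger HP (3.29).

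Around FBP1, G0S2 and SULT1C2 few genes reached 2-fold in THP1. None of 3 gluconeogenesis genes and none of 3 sulfotransferases past the filter reached 2-fold, and SULT1A1 had 0.28. Of 10 lipolysis genes 1 was higher, the monoglyceride lipase MGLL (1.02). Of 2 genes past the filter in the thrombomodulin and protein C list, 1 was at least 2-fold lower. This was F3, the initiator of coagulation (-1.57), in the opposite direction to THBD, and PROCR, the protein C receptor, had -0.35. None of 12 tetraspanins reached 2-fold, the largest being TSPAN15 (0.57). Among 9 monocyte differentiation genes KLF4, a transcription factor, was the 1 at least 2-fold higher (1.48).

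Of 19 other genes known to respond to vitamin D in monocytic cells, 9 were at least 2-fold higher and 1 at least 2-fold lower in THP1, with a median of 0.91, where all 12717 genes had 1.56% higher, 0.488% lower and a median of -0.01. They include the steroid sulfatase STS (3.09) and ASAP2, a regulator of Arf GTPases (2.85). The list was chosen with earlier results of these data known, so nothing is read from its counts. Outside the 10 genes, the largest differences in THP1 after CYP24A1 were those of the chemokines CXCL8 (4.41) and CXCL1 (4.13), RFPL2 (3.71), HP, the elongation factor ELL2 (3.17), STS, LYPD1 (2.93), ASAP2 and CXCL6 (2.84). In all, 16 other genes had a difference at least as large as that of THBD.

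In the colon cancer cells no gene of these lists was called for vitamin D3, as no gene was. With coculture, where 3.76% of all genes tested were called higher, BCL6, a transcriptional repressor (0.59 ± 0.08, adjusted p = 0.0135), and SP100, a nuclear body protein (0.33 ± 0.08, adjusted p = 0.0492), rose among 16 other vitamin D responsive genes tested. KLF4 rose by 0.63 ± 0.10 (adjusted p = 0.0157) among 5 monocyte differentiation genes tested. PLCG2, a phospholipase that acts below TREM1 (0.22, adjusted p = 0.0444), and TSPAN31, a relative of TSPAN18 (0.36, adjusted p = 0.0392), were the only others, of 6 and 14 tested in their lists. The vitamin D receptor, endotoxin, antimicrobial, gluconeogenesis, lipolysis, protein C, acute phase and sulfotransferase lists held no call for coculture. When each array was left out in turn, BCL6 passed in 8 of 8 fits and KLF4 in 7 (adjusted p up to 0.0515), while SP100 passed in 1, TSPAN31 in 1 and PLCG2 in 0 (adjusted p up to 0.132).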

How the data were processed

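Each of the 10 arrays holds 1 culture condition. The values the authors deposited are log2 intensities, 1 per probe set, from RMA (background correction, quantile normalisation and summary of probes) through the R package affy, per the submitters' processing notes, with no version given. Whether the 10 arrays were normalised together is not given in the sources used here. The deposited log2 values ran from 2.98 to 15.2, with array medians of 6.15 to 6.21, and RMA compresses differences among dim values. Arrays have no read depth, and it is their number that limits precision.

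Of 54675 probe sets, 41097 map to 1 gene symbol, 1801 to several and 11777 to none in the platform annotation, and those with 1 symbol gave 19775 genes. limma 3.58.1 (R 4.3.3) was run on the 8 colon cancer arrays with additive terms for vitamin D3, coculture and line (residual degrees of freedom 4), for the 13243 genes whose highest value exceeded 6.18 log2, the median of all values. Interactions were added 1 at a time (3 residual degrees of freedom). All tests are two-sided, with Benjamini-Hochberg adjustment across every gene tested and a threshold of 0.05 on the adjusted p. The 4 pairs that differ in 1 factor stand in for replicates, so p-values measure only the spread between these arrays. The arrays carry no replicate numbers, and the pairs come from cell line and coculture; with that pair as a block, 0 of 13243 genes were called for vitamin D3 (704 at an unadjusted p under 0.05). The THP1 pair carries no test.

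The 10 genes and all lists were chosen with earlier results of these data known. The text names the 10 genes, VDR, RXRA, CYP24A1, the 10 other genes with the largest rise in THP1, and up to 4 genes of each of 12 lists. Alternatives were no filter, a stricter filter (8.14 log2, the 75th percentile), probe sets averaged or taken singly, median-centred arrays, cyclic loess, eBayes with trend and robust fitting, a block of cell line and coculture, subsets of arrays, other fold thresholds in THP1 and leaving out each array. A split of vitamin D3 by coculture in 1 model, fits with no vitamin D3 term, unfiltered values for dim genes and the coculture by cell line test were added after the data were seen. On simulated data with 200 of 13243 genes changed by 1 log2, the model recovered 96.5% for vitamin D3, 98.0% for coculture, 96.5% for cell line, 65.0% for vitamin D3 by cell line, 56.5% for vitamin D3 by coculture and 73.0% for coculture by cell line. For vitamin D3, a simulated gene changed by the same size and sign in all 4 pairs. The 96.5% therefore does not cover a difference that turns with coculture, as that of CYP24A1 did. Promoter windows and half-sites were read from RefSeq sequence (GRCh38.p14). Plots used matplotlib 3.10.9 (Python 3.11.15).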

Additional observations from a re-analysis of the deposited data

Results flagged for a closer look

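In 3 genes the vitamin D3 difference had 1 sign in both colon cancer monocultures and the opposite sign in both cocultures. The coculture value minus the monoculture value was -0.86 log2 for ORM1 and -0.79 for SULT1C2, the order of CYP24A1, and 0.28 for TSPAN18, the opposite order. The difference itself was tested as an interaction in limma and did not pass the threshold (adjusted p = 0.504 for ORM1 without the filter, 0.991 for SULT1C2 and 0.991 for TSPAN18). Each sign rests on 2 pairs of single arrays. The order of CYP24A1 was seen in 4.96% of all 13243 genes tested, and the share with the opposite order was not counted. For ORM1, the probe sets shared with ORM2 did not show this order, and for SULT1C2 2 of the other 3 did not.

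CD14 had vitamin D3 differences above 0 in both HCT116 pairs and below 0 in both Hke3 pairs, and Hke3 minus HCT116 was -0.51 log2. As an interaction in limma without the filter this had an adjusted p of 1.

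In 3 genes the coculture difference had 1 sign in HCT116 and the other in Hke3. The share of all genes with such a split was not counted, so nothing is read from the number of genes. Hke3 minus HCT116 was 0.15 log2 for CD14, 0.20 for CAMP and -0.20 for G0S2. The adjusted p of the interaction in limma was 0.787 for CD14 and 0.396 for G0S2 without the filter, and 0.267 for CAMP with it. CD14 and G0S2 lay under 6.18 log2 on every colon cancer array, where sizes are approximate.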

How the results depend on the processing

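The count of 0 genes called for vitamin D3 in colon cancer cells became 1, CYP24A1, when only the arrays without coculture were fitted, and it stayed at 0 in the other fits run, with 0 of the 10 genes in each. The count of 2 genes called for coculture fell to 1 without the filter and to 1 with the mean of the probe sets, and ranged from 0 to 1 when each array was left out in turn. The vitamin D3 difference of TSPAN18 turned from -0.0034 to 0.0194 with median-centred arrays and to 0.0128 with cyclic loess. Leaving out each array gave fitted values of -0.0698 to 0.0146 for CAMP, -0.1404 to 0.292 for SULT1C2 and -0.0493 to 0.0498 for TSPAN18. The 6 genes too dim to test were instead averaged over the pairs that stayed complete. That gave -0.045 to 0.1437 for CD14, -0.2335 to 0.0823 for ORM1, -0.0678 to 0.0769 for THBD and -0.0172 to 0.0208 for G0S2. The signs of these 7 genes thus changed with the arrays used, and those of FBP1, TREM1 and CLMN did not. The sign of CLMN did change with the probe set, being below 0 for 221042_s_at and 225757_s_at. The causes were not tested. For vitamin D3 by coculture, CYP24A1 was called with the mean of the probe sets (adjusted p = 0.0495) and without HCT116 in coculture (0.0256). With the mean of the probe sets it was 1 of 2 genes called, and the other had the opposite sign. None of the 10 genes was called in any fit run. The count of genes at least 2-fold higher in THP1 was 10 under each scaling and with the mean of the probe sets. All 19 probe sets that map to 1 of the 10 symbols alone were at least 2-fold higher there, by 1.24 log2 at the least. Of the 2 probe sets shared by ORM1 and ORM2, 1 rose by 6.25 and the other by 0.49, under 2-fold. The count for Hke3 against HCT116 was 2 or 3. The coculture call of CLMN or TSPAN18 was lost in 14 single-gene fits. With the mean of the probe sets the THP1 difference was 4.46 for SULT1C2, 2.44 for CLMN and 2.98 for TSPAN18.

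Each condition rests on 1 array, and 6 of the 10 genes were too dim in the colon cancer cells to test. Whether the cells or the labels of the coculture arrays account for the turned order of CYP24A1 was not tested. The THP1 differences chose the genes and have no replicate.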
